A study of Mus musculus with 24 samples.

Results

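Plaur (ENSMUSG00000046223) encodes the urokinase receptor, and its RNA was followed in mouse basophils with and without tristetraprolin (TTP) after an antigen stimulus was taken away. The gene was chosen by its pattern in these same read counts: wild-type (WT) and TTP-deficient (TTP-KO) cells differed little in it at the end of the stimulus and differed afterwards. It is 1 row of 15737 genes in the table, found by its symbol, and 1 of the 12936 genes with enough reads to be tested. The cells were basophils grown from bone marrow of WT or TTP-KO mice for 7 days in 0.3 ng/mL IL-3, with TNP-specific IgE (1 µg/mL) and 4-thiouridine (s4U, 150 µM, a uridine analogue that marks new RNA) added on day 6. Cells carrying CD49b were pulled out with magnetic beads and met TNP-coupled ovalbumin (10 ng/mL) with s4U for 1.5 h. They were then washed and kept without antigen or s4U for 0, 1, 2 or 4 h, and alkylated RNA was read as 3' tags. Genotype and time give 8 groups of 3 libraries, 24 in all, and every group had the same IgE, antigen and s4U, so there was no unstimulated group. The labels give neither the deleted part of the TTP gene nor an age. Nothing in them ties a library to a mouse or a culture of its own, so p-values measure only how far these libraries vary, which may be technical variation.

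The urokinase receptor is a protein of the Ly6 and uPAR domain family that is held on the cell surface by a glycolipid anchor. It binds the protease urokinase, which cuts plasminogen to plasmin, and so concentrates this proteolysis at the cell surface. It also binds vitronectin and passes signals through integrins and formyl peptide receptors, since it has no part inside the cell. Myeloid cells carry it and many make more of it on activation. TTP, encoded by Zfp36, binds AU-rich elements in 3' untranslated regions (UTRs) and brings the machinery that shortens poly(A) tails to the RNA.

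The 3' UTR of Plaur is the part of the RNA where such elements would lie, so its AU-rich stretches are shown first. The protein-coding transcript with the longest 3' UTR in GENCODE M21, a GRCm38 annotation, was used (1506 bases in all). Its 3' UTR had 496 bases, 56.2% of them A or T, and 25.8% of 15392 genes had a longest 3' UTR as short or shorter. The TTP motifs TATTTAT (7 bases) and TTATTTATT (9 bases) were searched on the strand of the RNA, and neither was found in this UTR or in that of any other Plaur transcript. TATTTAT was present in 30.5% and TTATTTATT in 8.34% of the 15392 genes' longest 3' UTRs. The pentamer ATTTA, which lies inside both longer motifs and was searched only after these gave no match, was found 2 times, as in 69.6% of the genes with at least 1 match. The matches start at base 218 and base 288 after the stop codon, and capitals mark the pentamer:
Plaur site 1: gttattgctctaATTTAttatataaatat
Plaur site 2: ccccactgtcacATTTAgcttgggaagat
The first stood in a stretch of 86.2% A or T over 29 bases, the second in one of 51.7%. A match is a run of letters and not a site of binding, and the missing longer motifs say only that these letters are not in this annotated UTR.

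Libraries held 8839260 to 25372890 reads, of which 1639 to 6145 were of Plaur, so counting error was 1.28% to 2.47% of its level. Levels are given in CPM, reads scaled to a common library total with TMM factors, which allow for differences in RNA composition. Those factors were 0.885 to 0.906 at 0 h and 1.12 to 1.17 at 4 h. Scaling by library totals alone raised the median of all genes' changes by 0.34 (log2) from 0 to 4 h, by 0.17 from 1 to 2 h, by 0.12 from 2 to 4 h and by 0.06 from 0 to 1 h, so changes over time below are relative to the TMM scale. Of 11 basophil markers, 11 were present in every library, with Mcpt8 (a basophil protease) between 11810 and 15114 CPM. Zfp36, the targeted gene, was at 237 ± 28 CPM (SD, n = 3) in WT and 185 ± 26 in TTP-KO at 0 h, and at 126 ± 21 and 46.3 ± 11 at 1 h. Its log2 difference, TTP-KO minus WT, was -0.36 ± 0.24 (SE) at 0 h and -1.45 ± 0.24 at 1 h, with adjusted p by edgeR of 0.796 and 0.000116. Reads of Zfp36 thus remained in the libraries labelled TTP-KO, and where its 3' tags lie relative to the deletion is not given, so they check the labels only in part.

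In WT cells Plaur RNA was lowest at 1 h and higher again at 2 h, while in TTP-KO cells its mean was near the starting level until 2 h. At 0 h the WT libraries A, B and C were at 239, 227 and 250.2 CPM, and the TTP-KO libraries at 326, 185 and 272. The groups overlapped at 0 h, with TTP-KO library B below all WT libraries and the other TTP-KO libraries above them. At 1 h the WT libraries were at 122, 118 and 118 CPM and the TTP-KO libraries at 291, 288 and 255. Every TTP-KO library was above every WT library at this time. At 2 h the values were 153, 175 and 170.3 CPM in WT and 250.0, 290.5 and 286 in TTP-KO. At 4 h they were 162, 174 and 126 CPM in WT and 200.1, 185 and 219 in TTP-KO. The genotypes did not overlap at 2 h or at 4 h either, though at 4 h the highest WT library (174 CPM) came close to the lowest TTP-KO library (185 CPM).

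**Figure D1:**
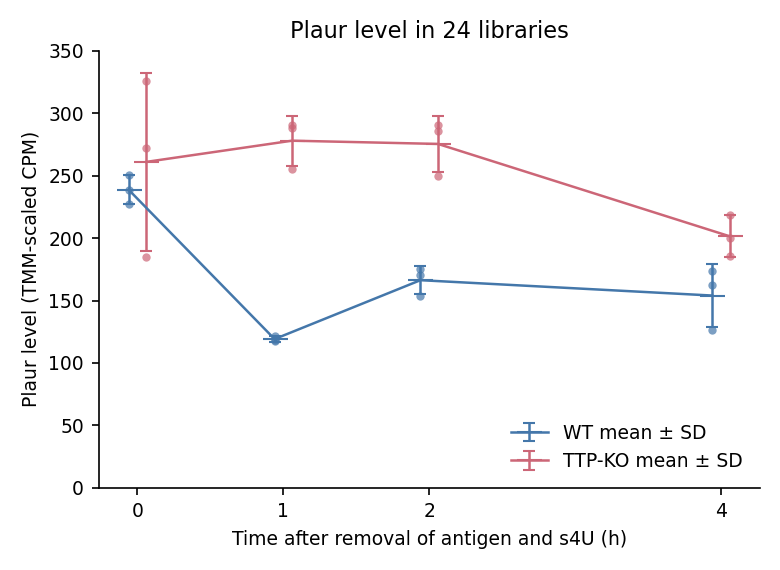
Plaur level (TMM-scaled CPM, vertical axis) against time after removal of antigen and s4U (h, horizontal axis) in each of 24 libraries, with the mean ± SD of 3 libraries per genotype and time. WT libraries lie between 118 and 122 CPM at 1 h, where TTP-KO libraries are between 255 and 291, and the TTP-KO libraries at 0 h are the most spread.

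Group means in WT were 239 ± 12 CPM (SD, n = 3) at 0 h, 119 ± 2.2 at 1 h, 166 ± 11 at 2 h and 154 ± 25 at 4 h. In TTP-KO they were 261 ± 71, 278 ± 20, 275 ± 22 and 201 ± 17 CPM at the same times. As a share of the genotype's own mean at 0 h, WT cells held 49.9% at 1 h, 69.7% at 2 h and 64.5% at 4 h. TTP-KO cells held 107%, 106% and 77.2%. From lowest to highest, the groups were WT at 1 h, WT at 4 h, WT at 2 h, TTP-KO at 4 h, WT at 0 h, TTP-KO at 0 h, TTP-KO at 2 h and TTP-KO at 1 h. Neighbours overlapped between WT at 4 h and 2 h, and along the whole upper end from WT at 0 h to TTP-KO at 1 h. They did not overlap between WT at 1 h and 4 h, between WT at 2 h and TTP-KO at 4 h, or between TTP-KO at 4 h and WT at 0 h.

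The genotype difference of Plaur was largest at 1 h and smaller at each later time. These differences chose the gene, so they are given with no test. The fitted log2 difference, TTP-KO minus WT, was 0.13 ± 0.15 (SE) at 0 h, 1.22 ± 0.16 at 1 h, 0.73 ± 0.15 at 2 h and 0.39 ± 0.15 at 4 h. In linear terms TTP-KO cells held 1.09, 2.33, 1.66 and 1.31 times the WT level. Of all 12936 genes, 0.526% were called between genotypes at 0 h, 0.502% at 1 h, 0.518% at 2 h and 1.82% at 4 h, where called means an adjusted p under 0.05 by edgeR. The value at 0 h rests on single libraries: it was -0.06 without TTP-KO library A and 0.33 without TTP-KO library B. At 1 h it stayed between 1.19 and 1.28 whichever library of the 24 was left out.

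The courses within each genotype show where the difference opened and narrowed. In WT the fitted log2 change was -1.003 ± 0.15 (SE) from 0 to 1 h, 0.48 ± 0.15 from 1 to 2 h and -0.11 ± 0.15 from 2 to 4 h. In TTP-KO it was 0.09 ± 0.15, -0.01 ± 0.15 and -0.45 ± 0.15 over the same steps. The largest step in WT was thus the one down in the first hour after the wash, and in TTP-KO the one down between 2 and 4 h, as a description of the pattern that chose the gene. The difference of the genotypes' changes was 1.09 ± 0.22 from 0 to 1 h, a contrast in which 0.0618% of all genes were called. Total RNA was measured here, so a level mixes RNA made before and after the wash, and the share carrying s4U was not analysed here.

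The change over time averaged over the genotypes is another contrast than the genotype difference that chose the gene, and was tested. It uses the same libraries. From 0 to 1 h it is the mean of a large step down in WT and almost none in TTP-KO, so it stands for neither genotype alone. The WT levels after the wash, with this step down, are part of the pattern that chose the gene. No p of a mean given here, over any step, is thus separate support for that pattern. As the mean of the genotypes, Plaur fell from 0 to 1 h by 0.46 ± 0.11 (SE) on the log2 scale (adjusted p = 0.00383, edgeR), where 6.74% of all genes were called. From 1 to 2 h its change was 0.23 ± 0.11 (adjusted p = 0.226, edgeR; 7.12% of genes called) and from 2 to 4 h it was -0.28 ± 0.11 (adjusted p = 0.0849, edgeR; 11.3% called). Over the whole course, 4 against 0 h, it fell by 0.50 ± 0.11 (adjusted p = 0.000244, edgeR), in a contrast where 30.7% of genes were called. With library totals alone the fall over 4 h was no longer called (-0.16, adjusted p = 0.271, edgeR) and the change from 1 to 2 h was (0.40, adjusted p = 0.0125, edgeR). The averaged fall in the first hour was called under every scaling, without each library in turn and with DESeq2, with adjusted p of at most 0.04. These refits use the same reads that chose the gene, so the same limit holds for them.

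Of the genes listed with the receptor, as its system or its domain family, Mmp12, Mmp14, Serpine2, Itgb1 and Ly6i were called between the genotypes at 1 time or more. Of 64 genes of the urokinase system on a list set with earlier results known, 52 were in the table and 44 could be tested. TTP-KO was called higher than WT for 2 and lower for 0 of the 44 at 0 h, for 1 and 0 at 1 h, for 3 and 0 at 2 h, and for 3 and 1 at 4 h. Of all genes, 0.526%, 0.502%, 0.518% and 1.82% were called in either direction at these times. The list's median log2 difference was 0.01, 0.02, 0.12 and 0.17 at the 4 times, beside 0.00, -0.01, 0.00 and 0.00 over all genes, and 0.02 at 0 h with the genes that had 0 reads in a group taken at their bound, or left out where no bound could be given. For the difference of the genotypes' changes from 0 to 1 h, 0 of 44 were called by edgeR and 0 by DESeq2, and 2 had an unadjusted p under 0.05 by edgeR.

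Urokinase itself (Plau), the receptor's ligand, was a low gene with a wide spread. Its level was 3.49 ± 3.7 CPM (SD, n = 3) in WT and 23.7 ± 5.1 in TTP-KO at 0 h, 5.65 ± 4.2 and 31.3 ± 7.6 at 1 h, 3.74 ± 1.7 and 25.7 ± 6.5 at 2 h, and 5.39 ± 6.0 and 13.8 ± 10 at 4 h. The genotypes did not overlap at 0, 1 and 2 h. The log2 difference of Plau was 2.76 ± 0.82 (SE), 2.47 ± 0.80, 2.78 ± 0.82 and 1.37 ± 0.78, with adjusted p of 0.175, 0.283, 0.138 and 0.494 by edgeR, so none was called. Its difference thus had about the same size at 0 h as at 2 h. The other activator Plat, the substrate Plg and the matrix ligand Vtn were not analysed here.

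The inhibitors Serpinb2 and Serpine2 took different courses. Serpinb2 (PAI-2, an inhibitor of urokinase that stays largely inside cells) went from 706 ± 44 CPM (SD, n = 3) at 0 h to 256 ± 38, 71.6 ± 6.4 and 50.3 ± 6.6 in WT, and from 626 ± 22 to 314 ± 12, 69.7 ± 19.5 and 37.0 ± 6.2 in TTP-KO. Averaged over genotypes it fell by 3.94 ± 0.12 on the log2 scale from 0 to 4 h (adjusted p = 9.5e-31, edgeR), and it was called between genotypes at no time (adjusted p from 0.172 to 1, edgeR). Its mean at 4 h was thus far below that at 0 h in both genotypes, where Plaur held 64.5% and 77.2%. Serpine2 (protease nexin 1, which inhibits thrombin and urokinase) was higher in TTP-KO at 2 h and 4 h.

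For Serpine2, WT libraries A, B and C were at 254, 241 and 191 CPM at 0 h and TTP-KO libraries at 295, 292 and 281. At 2 h they were at 162, 233 and 193 in WT and 262, 324 and 334 in TTP-KO, and at 4 h at 126, 178 and 177 in WT and 229, 290.1 and 265 in TTP-KO. The genotypes of Serpine2 did not overlap at these 3 times, with the WT levels lower at 4 h than at 0 h. Its log2 difference was 0.34 ± 0.15 (SE) at 0 h, 0.55 ± 0.15 at 1 h, 0.65 ± 0.15 at 2 h and 0.71 ± 0.15 at 4 h, with adjusted p of 0.646, 0.108, 0.0268 and 0.00505 by edgeR. The call of Serpine2 at 2 h was lost without WT library A or C or TTP-KO library B or C (adjusted p up to 0.315), and that at 4 h without WT library A (adjusted p = 0.0657, edgeR). It was also lost at 4 h without TTP-KO libraries B and C together (adjusted p = 0.32).

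**Figure D2:**
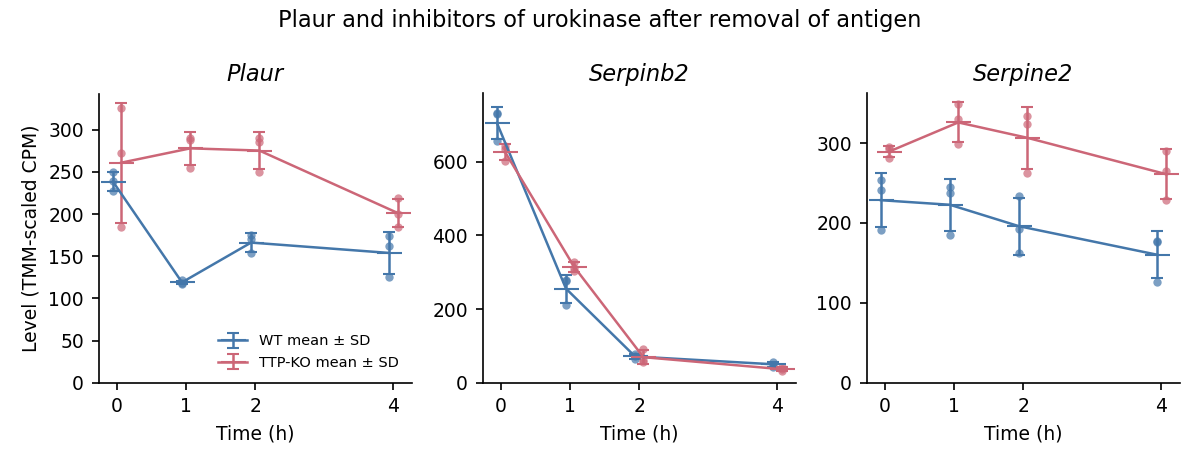
Levels (TMM-scaled CPM, vertical axes, each from 0) of Plaur and the inhibitor genes Serpinb2 and Serpine2 against time after removal of antigen and s4U (h), as points for libraries and mean ± SD of 3 per genotype. Serpinb2 falls in both genotypes from 706 and 626 CPM to 50.3 and 37.0, whereas Plaur ends at 154 and 201.

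Genes for plasminogen binding changed with time, and neither they nor those for uptake of the receptor were called between genotypes. Of the 4 plasminogen binding genes 0 were called between genotypes at any time. From 0 to 4 h, averaged over genotypes, S100a10 (partner of annexin A2 in binding plasminogen) fell by 0.81 ± 0.08 (SE, log2; adjusted p = 9.25e-12, edgeR), while Anxa2 rose by 0.41 ± 0.08 (adjusted p = 9.13e-05, edgeR) and Eno1 (enolase) by 0.82 ± 0.10 (adjusted p = 7.19e-09, edgeR). Plgrkt, a plasminogen receptor with a membrane anchor, changed by 0.17 ± 0.15 (adjusted p = 0.435, edgeR). Lrp1, which takes up the receptor with its bound inhibitor complex, was at 3.03 ± 0.56 CPM (SD, n = 3) in WT and 21.1 ± 3.9 in TTP-KO at 0 h, and at 3.35 ± 2.9 and 13.5 ± 2.2 at 1 h. Its log2 difference was 2.80 ± 1.0 (SE) at 0 h (adjusted p = 0.414, edgeR) and 1.50 ± 0.97 to 2.46 ± 0.99 later (adjusted p from 0.273 to 0.729, edgeR), so none was called. Mrc2, another partner in uptake, was too low to be tested.

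Among the signalling partners, the integrin chain Itgb1 was the one called between genotypes. At 4 h its WT libraries were at 493, 475 and 534 CPM and its TTP-KO libraries at 386, 254 and 273, without overlap. The log2 difference of Itgb1 was -0.72 ± 0.14 (SE) at 4 h (adjusted p = 0.00146, edgeR), beside 0.00 ± 0.14 at 0 h and -0.26 ± 0.14 at 1 h. Without TTP-KO libraries B and C, the smallest libraries, it was -0.39 (adjusted p = 0.57, edgeR). Itgam (CD11b, which pairs with CD18 and associates with the urokinase receptor) fell from 0 to 4 h, averaged over genotypes, by 1.42 ± 0.12 (adjusted p = 1.86e-14, edgeR), and was at 313 ± 57 CPM (SD, n = 3) in WT and 467 ± 24 in TTP-KO at 0 h (adjusted p = 0.102, edgeR). Its partner Itgb2 (CD18) had log2 differences between -0.06 and 0.10, Itgav between -0.65 and 0.92, and the formyl peptide receptors Fpr1 between -1.58 and 0.05 and Fpr2 between -0.99 and 0.38, and none was called at any time by edgeR (adjusted p of at least 0.363).

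Among genes for release and cleavage of the receptor, the proteases Mmp12 and Mmp14 were called between genotypes. Mmp12, the macrophage elastase, was at 18.5 ± 8.1 CPM (SD, n = 3) in WT and 69.7 ± 14 in TTP-KO at 0 h, at 20.9 ± 4.5 and 77.2 ± 7.1 at 1 h, at 28.0 ± 8.3 and 90.3 ± 13 at 2 h, and at 45.1 ± 7.6 and 185 ± 50 at 4 h. The log2 difference of Mmp12 was 1.91 ± 0.26 (SE), 1.89 ± 0.26, 1.69 ± 0.26 and 2.04 ± 0.26, with adjusted p by edgeR of 2.68e-06, 3.14e-06, 3.69e-05 and 5.99e-07. It was thus called at all 4 times. Mmp14, a protease held in the membrane, was at 4.99 ± 2.3 CPM in WT and 43.8 ± 10 in TTP-KO at 0 h (log2 difference 3.14 ± 0.54, adjusted p = 0.000339, edgeR) and at 4.62 ± 5.3 and 37.4 ± 8.9 at 4 h (3.03 ± 0.54, adjusted p = 0.000517, edgeR). Single WT libraries set the size at 4 h: the log2 difference of Mmp14 was 2.47 without WT library A and 4.52 without WT library C. At 1 h and 2 h the difference of Mmp14 was 1.31 ± 0.51 and 1.48 ± 0.51 (adjusted p = 0.522 and 0.316, edgeR). Among the relatives with the same domain, Ly6i was called higher in TTP-KO at 2 h (adjusted p = 0.00147, edgeR). Ly6i had 0 reads in the WT libraries at that time and 11.2 ± 2.3 CPM in TTP-KO, which is at least 248-fold higher against a floor of 3 counts over the group (0.0451 CPM, counting error only). It was not called at the other times. Its levels were 0.257 to 1.55 CPM in WT and 7.58 to 14.9 in TTP-KO at 0 h. At 1 h they were 0 to 4.75 and 8.46 to 14.8 CPM, and at 4 h they overlapped, at 0 to 5.32 and 2.18 to 5.54. Ly6 genes are close copies of each other, so reads may have been split between them.

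**Figure D3:**
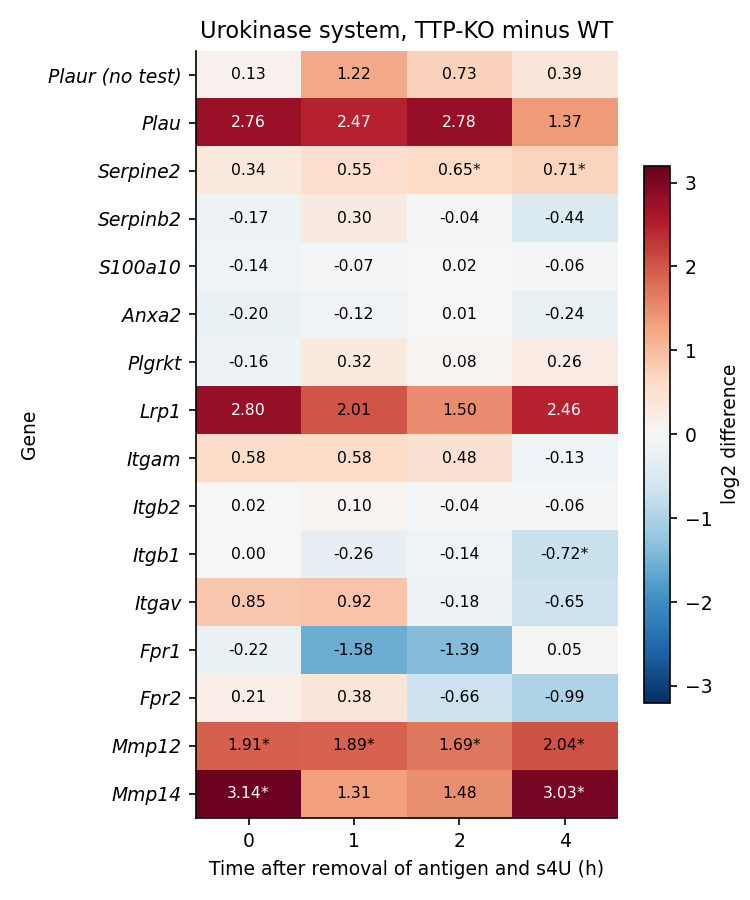
Log2 difference, TTP-KO minus WT, at 4 times (horizontal axis, h) for Plaur and named genes of the urokinase system (vertical axis), with the value written in each cell, red for higher and blue for lower in TTP-KO, and an asterisk for an adjusted p under 0.05 by edgeR (Plaur carries no test). Mmp12 is called at all 4 times, and Plaur has its largest value, 1.22, at 1 h.

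Averaged over genotypes, 0 of the 44 genes rose and 7 fell from 0 to 1 h, 1 rose and 11 fell from 1 to 2 h, 6 rose and 4 fell from 2 to 4 h, and 6 rose and 16 fell from 0 to 4 h, as called by edgeR. Of all genes, 6.74%, 7.12%, 11.3% and 30.7% were called over these steps. The split depends on the scale: with library totals alone, 9 rose and 10 fell from 0 to 4 h, and 1 rose and 4 fell from 1 to 2 h. On that scale 36.7% and 8.06% of all genes were called over these steps. The split of all genes from 0 to 4 h moved too, from 1982 higher and 1987 lower to 3536 higher and 1210 lower. Of the 22 genes called from 0 to 4 h, 16 were called in the same direction with library totals alone, and 2, Serpine2 (-0.33 and 0.02) and Itgb3 (-0.28 and 0.07), changed sign. The falls of Serpinb2, S100a10 and Itgam and the rises of Anxa2 and Eno1 over 4 h were called on both scales, unlike the fall of Plaur.

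Genes known as TTP targets included some that were called at 1 h and not at 0 h. On a list of 45 such genes (Plaur left out), TTP-KO was called higher for 13 and lower for 0 at 0 h, for 14 and 1 at 1 h, for 12 and 0 at 2 h and for 13 and 1 at 4 h, beside 0.526%, 0.502%, 0.518% and 1.82% of all genes called in either direction. Zfp36, the targeted gene itself, is on this list and was the 1 called lower at 1 h and at 4 h. The list's median log2 difference was 0.41, 0.36, 0.50 and 0.24 at the 4 times. Called higher at 1 h and not called at 0 h were 3 of the 45 (6.67%), beside 14 of all genes tested (0.108%). The 3 were the cytokines Il4 and Il13 and the chemokine Ccl4. The log2 difference of Il4 was 0.03 at 0 h, 0.96 at 1 h, 1.67 at 2 h and 1.68 at 4 h, that of Il13 was 0.46, 1.33, 2.01 and 1.58, and that of Ccl4 was 0.28, 0.51, 0.44 and -0.18. Adjusted p at 1 h by edgeR was 6.56e-08 for Il4, 1.25e-05 for Il13 and 0.00142 for Ccl4. Plaur peaked at 1 h, as Ccl4 did, whereas the differences of Il4 and Il13 were larger at 2 h and 4 h than at 1 h. All these values come from the same libraries, so the genes are not separate evidence of one pattern.

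**Figure D4:**
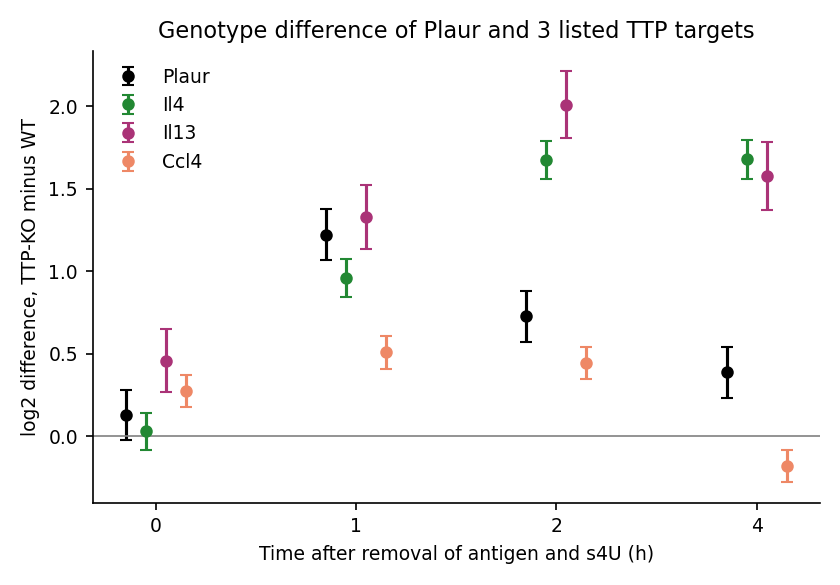
Log2 difference, TTP-KO minus WT (vertical axis, bars are SE from the edgeR fit), at 0, 1, 2 and 4 h after removal of antigen and s4U (horizontal axis, evenly spaced) for Plaur, Il4, Il13 and Ccl4. Plaur goes from 0.13 to 1.22 and then down to 0.39, while Il4 stays at 1.68 at 4 h.

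Genes among the 14 called higher at 1 h and not at 0 h were named after their values were seen. Plaur is among the 14 through the pattern that chose it, so nothing is read from its place there. Beside Il4, Il13 and Ccl4 the others included Pid1, Pus7, Atp6v0d2, Gch1, Chmp5, Prdx1, Atp6v1a, Pim3 and Cdkn1a. A call at 1 h and none at 0 h does not show that the differences changed: that of Atp6v0d2, a proton pump subunit, was 1.84 at 0 h and 3.54 at 1 h. Pim3, a kinase of the PIM family, went from 0.02 to 0.55 and was at 0.17 at 2 h and -0.41 at 4 h.

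Of the genes for proteins that bind AU-rich RNA or Plaur RNA, none but Zfp36 was called between genotypes in this test. Of the 10 on that list (the TTP family members Zfp36, Zfp36l1 and Zfp36l2, and Elavl1, Hnrnpd, Khsrp, Tia1, Tial1, Hnrnpc and Pgk1), 0 were called at 0 h and 2 h, and 1, Zfp36, was called lower at 1 h and at 4 h (adjusted p = 0.0422 at 4 h, edgeR). Zfp36 RNA itself fell from 0 to 4 h, averaged over genotypes, by 2.05 ± 0.17 (SE, log2; adjusted p = 7.83e-14, edgeR). In WT it was at 237, 126, 75.5 and 68.4 CPM at the 4 times, so its mean in WT was lowest at 4 h and that of Plaur at 1 h. Zfp36l1 was at 154 ± 9.3 CPM (SD, n = 3) in WT and 194 ± 35 in TTP-KO at 0 h, and at 112 ± 24 and 172 ± 14 at 1 h. Its means were thus higher in TTP-KO at both times. It was not called, which does not show that a difference is absent.

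Markers of other cells moved with genotype, among them those of macrophages. Of 20 monocyte and macrophage markers 19 were tested, and TTP-KO was called higher for 11 at 0 h, 9 at 1 h, 10 at 2 h and 9 at 4 h, and lower for 0 at each, where 0.526%, 0.502%, 0.518% and 1.82% of all genes were called in either direction. Their summed level was 3397 to 3587 CPM in WT and 5774 to 5865 in TTP-KO at 0 h, and 3924 to 4094 and 6237 to 6600 at 1 h. At 2 h it was 3581 to 3949 and 5778 to 6528, and at 4 h 3677 to 3780 and 4893 to 5416. The TTP-KO sum was thus 1.67, 1.61, 1.63 and 1.39 times that of WT, where Plaur stood at 1.09, 2.33, 1.66 and 1.31 times. Without Spp1 and Lgals3, which were at 1015 CPM or more in every library, the ratio of the other 18 was 2.78, 3.005, 2.996 and 2.71. At 0 h the marker sums of the genotypes did not overlap and their Plaur levels did. Among the 3 TTP-KO libraries at 0 h the sum of the 20 markers spanned 5774 to 5865 CPM and Plaur 185 to 326. Of the defining markers, Cd5l was at 0 in 22 of 24 libraries, Fcgr1 in 7 and Mrc1 in 4, and Lyz2, Apoe, Ctss, Csf1r and Adgre1 in none. The part of these cells in the level of Plaur was not tested, and more cells of a type cannot be told apart from more RNA per cell in bulk libraries.

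**Figure D5:**
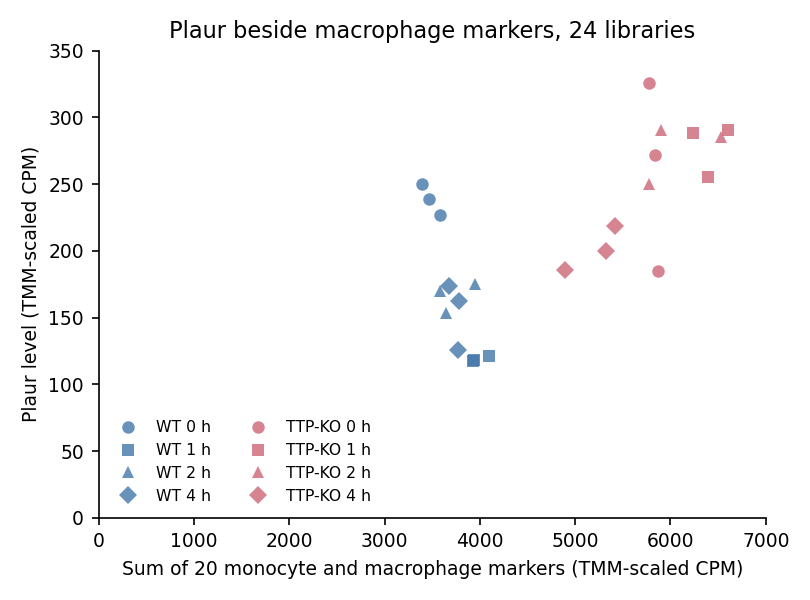
Plaur level (vertical axis, TMM-scaled CPM) against the sum of 20 monocyte and macrophage markers (horizontal axis, TMM-scaled CPM) in 24 libraries, coloured by genotype with a symbol for each time. TTP-KO libraries lie between 4893 and 6600 CPM of markers and WT libraries between 3397 and 4094. Within WT, the libraries at 1 h have the lowest Plaur and marker sums of 3924 CPM or more. The other 18 markers, without Spp1 and Lgals3, had mean WT sums of 999 CPM at 0 h and 859 at 1 h.

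Summed markers of mast cells and of dendritic and B cells did not overlap between genotypes at any time either. Mast cell markers were lower in TTP-KO, with means of 243 CPM in WT and 138 in TTP-KO at 0 h and 266 and 145 at 4 h. Dendritic and B cell markers were higher in TTP-KO, with 299 and 507 CPM at 0 h and 246 and 369.9 at 4 h. Their part in the level of Plaur was not tested. The summed basophil markers had group means of 35009 to 48332 CPM, lower at 4 h than at 0 h in both genotypes. At 1 h, the sums were 47807 CPM in WT and 47908 in TTP-KO for basophils, 3907 and 4011 for neutrophils, 207 and 131 for mast cells, 960.1 and 752 for NK and T cells, 307 and 512 for dendritic and B cells, and 200.1 and 245 for eosinophils. Neutrophil sums did not overlap at 0 h (4564 to 4959 CPM in WT, 3827 to 4164 in TTP-KO) or, the other way round, at 4 h (2579 to 2837, 3418 to 3646). Basophil sums did not overlap at 2 h (40542 to 41993, 42928 to 45177). Nor did NK and T cell sums at 1 h and 2 h, or eosinophil sums at 1 h. The part of these cells in the level of Plaur was not tested.

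Genes whose level correlated most with that of Plaur over the 24 libraries were partly macrophage markers: Lyz2, C1qc, Ctss and Apoe are on that list. Pearson r of log2 CPM, over 7078 tested genes with a mean of at least 10 CPM, was highest for Lyz2 (lysozyme, 0.80), C1qc (a complement chain, 0.77), Mfge8 (a bridge for taking up dying cells, 0.74), Vdac2 (a channel of mitochondria, 0.74), Ctss (cathepsin S, 0.74), Il6 (0.73), Igf1 (0.73), Saa3 (0.72), Apoe (0.72) and Atp6v1a (a proton pump subunit, 0.71). The points share genotype, time and scaling, so r is a description with no test. The list depends on this measure. Ranked by root mean square difference of group mean log2 changes from WT at 0 h, 1 of these 10, Mfge8, was kept. That difference from Plaur was 0.55 for Lyz2, 1.51 for C1qc, 1.72 for Ctss and 1.80 for Apoe, beside 0.28 for Mfge8. Of these genes, Lyz2, C1qc, Ctss, Il6, Igf1 and Apoe were called higher in TTP-KO already at 0 h by edgeR (adjusted p of at most 0.022), unlike the level of Plaur, which overlapped then. Within a genotype (12 libraries), r for Lyz2 was 0.63 in WT and 0.54 in TTP-KO, for Il6 0.73 and 0.53, and for Apoe 0.21 and 0.49. The value of Vdac2 was 0.70 in WT and 0.07 in TTP-KO, so its likeness to Plaur lay in the WT libraries. The lowest r belonged to F2r (the thrombin receptor PAR1, -0.68), Nradd (-0.67) and Plxdc2 (-0.67), and for F2r it was -0.78 in WT and 0.23 in TTP-KO.

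Il6, the cytokine among them and a known TTP target, shows where the courses differ. Its WT libraries were at 3538, 3703 and 3865 CPM at 0 h and 2132, 1832 and 1929 at 1 h, and its TTP-KO libraries at 5999.7, 5627 and 5939 and then 4400, 4348 and 3981. The genotypes of Il6 did not overlap at either time, and every library of Il6 at 1 h was below every library of the same genotype at 0 h, which for Plaur held in WT and not in TTP-KO. The WT mean of Il6 at 1 h was 53.0% of that at 0 h, beside 49.9% for Plaur, and at 4 h it was 37.7%, beside 64.5%.

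Genes next to Plaur were mostly low. In RefSeq order (GRCm38.p6), Smg9, Irgc1, Gm36159 and LOC115486505 lie on one side, and Cadm4, Zfp428, Irgq and Pinlyp on the other. Of these 8, Smg9, Cadm4, Zfp428 and Irgq were tested, with mean levels of 27.4, 0.146, 1.09 and 9.11 CPM, and the others were not analysed here. None of the 4 was called between genotypes at any time by edgeR, with a lowest adjusted p of 0.88, 0.602, 0.931 and 0.553. Smg9, the only neighbour above 10 CPM, had log2 differences between -0.26 and 0.42. Zfp428 ran from -1.68 to 2.49 and Cadm4 from -4.16 to 5.17, and neither was called at these low levels, so they do not show that a difference is absent.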

How the data were processed

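Per the labels' protocols, RNA was alkylated and sequenced as QuantSeq 3' tags. Tools named in the submitters' processing notes are STAR 2.7.10a, cutadapt 3.5 and SAMtools, with the build GRCm39. The deposited table holds expected counts per gene and library, made by the authors and not normalized, of which 12.8% were not whole. Its annotation is not given in the sources used here. Its columns carry letters and the labels numbers, which nothing ties, so a read column stands for 1 library of the group its name shows. The 144 other columns of per-sample values (new-to-total RNA ratios and their intervals) and the half-lives were not used here.

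Expected counts were rounded, filtered with filterByExpr and scaled with TMM. One quasi-likelihood fit in edgeR 4.0.16 (R 4.3.3) held the 8 group means over 24 libraries. A gene was called where its p, adjusted by Benjamini-Hochberg over 12936 genes, was under 0.05. Libraries differed within groups by 29.5 to 77.2 in chi-square per degree of freedom, so none repeated another. The fit was tested on simulated data.

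Plaur was chosen, and the gene lists, tests and named genes were set, with earlier results of these data known. Named were Plaur, set members of the urokinase list, other members called between genotypes, the genes most and least like Plaur, TTP targets called at 1 h and not at 0 h, and 4 neighbours on either side, some of which are not reported here. The pentamer motif, the r within each genotype, the test of unequal change in the urokinase list and the macrophage sum without Spp1 and Lgals3 were added after seeing the data. Alternatives were other scalings, no filter, DESeq2 1.42.0, a replicate block, fewer groups and left-out libraries. The 3' UTR came from GENCODE M21 (GRCm38), matched by gene ID, and the gene order from RefSeq (GRCm38.p6). Neither is the build the submitters name, so no gene coordinates are given.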

Additional observations from a re-analysis of the deposited data

Results flagged for a closer look

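The change after the wash was compared between genotypes, by a test of the difference itself, in a part of the genes named here. These were the urokinase list, the genes most and least like Plaur, and Il4, Il13 and Ccl4. Among them Il4 was the one called. From 0 to 1 h its log2 change in TTP-KO exceeded that in WT by 0.93 ± 0.16 (SE; adjusted p = 0.00235, edgeR), and from 0 to 4 h by 1.65 ± 0.16 (adjusted p = 2.15e-09, edgeR). Il4 was at 2655 to 3556 CPM in the TTP-KO and 3045 to 3388 CPM in the WT libraries at 0 h, and at 1053 to 1373 and 355 to 382 CPM at 4 h. The same contrast is a description for Plaur, with 1.09 ± 0.22 from 0 to 1 h and 0.26 ± 0.22 from 0 to 4 h. On the whole list of 45 TTP targets, 3 were called higher and 0 lower from 0 to 1 h, and 2 higher and 3 lower from 0 to 4 h. Of all genes, 0.0618% and 0.193% were called in these contrasts.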

How the results depend on the processing

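Over 997 recomputed values of the listed results, 0 called values changed sign; the scaling comparison over time in the report adds 2 that did, Serpine2 (-0.33 to 0.02) and Itgb3 (-0.28 to 0.07). The causes of the changes below were not tested. With library totals alone, the averaged change of Plaur was 0.40 (log2) from 1 to 2 h and -0.16 from 4 against 0 h, its levels were 214 and 113 CPM in WT at 0 h and 1 h and 256 and 233 in TTP-KO at 1 h and 4 h, and 5 urokinase genes changed from 1 to 2 h against 12. Urokinase genes called between genotypes at 0, 1, 2 and 4 h numbered 2, 1, 3 and 4. They were 4, 5 and 5 at the first 3 times with no filter, 4, 4, 5 and 2 without TTP-KO 4 h B and C, and 5, 2 and 1 at 0, 1 and 4 h with only the groups compared. DESeq2 called 4 at 1 h and 11 against 7 for the change from 0 to 1 h. TTP targets called at 1 h and not at 0 h fell from 3 to 1 with only the groups compared. Ranking by root mean square difference kept 1 of the 10 genes most like Plaur. Leaving out each library gave 2 to 4 urokinase genes at 0 h (4 without WT 0 h A) and 1 to 3 at 1 h (3 without WT 1 h B, WT 2 h B or KO 4 h A, 2 without KO 1 h C, WT 4 h A or KO 4 h B), and 3 to 6 TTP targets (6 without WT 0 h B, 5 without WT 0 h A, WT 2 h A or KO 4 h C). It gave Plaur changes of -0.34 to -0.23 from 2 to 4 h, called without WT 4 h B (adjusted p = 0.0419, edgeR). Over all genes, 68, 65, 67 and 236 were called between genotypes, against 222, 204, 234 and 489 with DESeq2, 123, 108, 127 and 306 with no filter, 116, 66, 41 and 47 with only the groups compared, and 134, 120, 146 and 130 without KO 4 h B and C. Without KO 4 h A, 102 were called at 2 h and 431 at 4 h, and without KO 4 h C 137. The column letters did not pair the libraries (correlations of -0.0447 to 0.0359 in 12 pairs), and a replicate block by letter gave 1.22 for Plaur at 1 h and -0.45 for its averaged change from 0 to 1 h, changed no call of Plaur, and gave 12 urokinase genes against 10 from 2 to 4 h. Plaur reads set its counting error below 3%. Plau, Lrp1 and Fpr1 had standard errors of the genotype difference of 0.62 or more. Such errors hold the spread between libraries as well as counting error: Plau had 0, 181 and 71 reads in the WT libraries at 4 h. They are not a limit of detection, as the larger log2 difference of Plau at 2 h, 2.78, was not called. The lack of a call for these genes thus does not show that a difference is absent.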
